A study of Mus musculus with 7 samples.

Results

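Cxcl9, Cxcl10, Cxcl16 and Ccl5 encode chemokines that draw T cells, and they were followed here across 7 RNA sequencing libraries of sorted microglia, the macrophages that reside in brain tissue. Their rows were found by symbol, as the first name or an alias in the deposited annotation. All 4 genes had 1 row each among 24537 genes, matched by the first symbol, and all 4 were among the 13028 genes tested.

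The microglia came from C57BL/6 mice with the implanted 005 glioma, a mouse model of glioblastoma, and were sorted as CD45 intermediate, CX3CR1+ cells at day 35 after implantation. In 3 libraries the mice had received an antibody to CTLA4, an inhibitory receptor of T cells, together with an anti-CD4 antibody that depletes CD4 T cells. In 2 libraries they had received anti-CTLA4 alone, and in 2 libraries control IgG. All groups carried the tumour, and no library of tumour-free mice was analysed here. The labels do not say that the libraries of a group came from separate animals, so the spread behind each p-value is that between libraries and may be technical.

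The columns named for anti-CTLA4 bear the sample sheet numbers 29 and 30, whereas the descriptions of these samples give 10 and 11. The command kept in the file header assigns 29 and 30 to microglia libraries whose names read as interferon-gamma receptor knockouts. These columns are therefore called the libraries labelled anti-CTLA4, and each direction drawn from them rests on the column names. Depth implied by the steps of low values was 84100000 to 108000000 reads per library. The 12 microglia markers were all at 1 FPKM or more in each library, and their summed level was 3201 to 5309 FPKM with CD4 depletion, 6856 and 10117 FPKM in the libraries labelled anti-CTLA4, and 4769 and 3767 FPKM with IgG. The summed level of 8 tumour and oligodendrocyte precursor markers was 144 to 503 FPKM, 80.0 and 31.1 FPKM, and 607 and 839 FPKM in the same groups. CD4 depletion replicate 1 stood apart, with 808 FPKM summed over 9 monocyte markers against 19.5 and 22.3 FPKM in the other two libraries of its group, and with 522 FPKM over 7 neutrophil markers against 45.0 and 74.5 FPKM. The Y-linked transcript Eif2s3y was at 4.34 to 6.86 FPKM with CD4 depletion, 0.335 and 1.06 FPKM in the libraries labelled anti-CTLA4 and 0.896 and 0.947 FPKM with IgG. Xist, the transcript of the inactive X chromosome, was at 2.42 to 3.42 FPKM, 3.85 and 6.08 FPKM, and 2.16 and 2.48 FPKM in the same groups. The depletion libraries thus had more Eif2s3y than all others, while their Xist range overlapped that of IgG. Of the other Y-linked genes listed, Ddx3y and Uty were also higher with CD4 depletion than with IgG, and Kdm5d overlapped. The part of sex in the results was not tested. In such bulk samples, fewer cells of a type and less RNA per cell cannot be told apart either.

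Chemokines are small secreted proteins that guide leukocytes along concentration gradients through G protein-coupled receptors. Cxcl9 and Cxcl10 bind CXCR3, a receptor of activated T cells and NK cells; Cxcl9 is known mainly as a target of interferon-gamma, whereas Cxcl10 is also induced by type I interferon and NF-kB. Cxcl16 is made as a membrane-bound protein, also known as a scavenger receptor for oxidised lipid, and once shed it attracts cells that carry CXCR6. Ccl5, also called RANTES, acts through receptors that include CCR1 and CCR3 and is made by T cells and NK cells as well as by myeloid cells.

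Cxcl9 and Cxcl10 lie side by side on chromosome 5 in build mm10, at chr5:92321331-92328079 and chr5:92346639-92348889, both on the minus strand and 18559 bases apart. Cxcl16 is at chr11:70454234-70459984 and Ccl5 at chr11:83525779-83530518, also on the minus strand. The 250 bases before the start of Cxcl9 and of Cxcl10 are shown because these neighbours share a receptor and yet differed in the data below. They come from the RefSeq table of build GRCm38.p6, which had an entry for 2 of the 4 genes, and lie at chr5:92328080-92328329 and chr5:92348890-92349139. They are written 5′ to 3′ on the minus strand, with matches to the motifs named below in capitals.
Cxcl9: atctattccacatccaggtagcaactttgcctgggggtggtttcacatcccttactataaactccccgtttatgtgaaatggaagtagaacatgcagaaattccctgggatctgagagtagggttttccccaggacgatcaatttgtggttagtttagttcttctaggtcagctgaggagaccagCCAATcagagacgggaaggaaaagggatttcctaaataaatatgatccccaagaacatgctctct
Cxcl10: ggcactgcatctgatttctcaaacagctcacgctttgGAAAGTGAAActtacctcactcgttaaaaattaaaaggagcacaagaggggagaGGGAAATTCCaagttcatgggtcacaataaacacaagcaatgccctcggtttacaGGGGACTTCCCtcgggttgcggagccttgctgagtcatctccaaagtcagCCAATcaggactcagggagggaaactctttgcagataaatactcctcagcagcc

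The motifs were searched on both strands. The core of the interferon-stimulated response element, searched as GAAA, any 2 bases and GAAA, matched the Cxcl10 window at 213 to 204 bases before the start and had no match in the Cxcl9 window; 2.98% of 32851 promoter windows of this length held it. The kappa-B consensus, the motif of NF-kB, was searched as GGG, A or G, any 2 bases, 2 bases of C or T, and CC. It matched Cxcl10 at 159 to 150 bases before the start and again, in 2 overlapping registers, at 104 to 94 bases. The Cxcl9 window had no match, and 7.25% of windows held it. Only exact matches were counted, so sites close to this consensus were left out in both windows. The gamma-activated site TTCNNNGAA matched neither window and was held by 7.02% of them. A CCAAT box began 65 bases before the start of Cxcl9 and 54 bases before that of Cxcl10, and 33.8% of windows held one. That box lies in the longest run common to both windows, CAGCCAATCAG, which occurred in 0.755% of windows. These matches describe the letters of the windows; no binding was measured.

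Ccl5 had the highest level of the 4 genes in the libraries labelled anti-CTLA4 and Cxcl10 in all 5 others. With CD4 depletion, Ccl5 was at 26.1, 15.6 and 42.9 FPKM, against 219 and 116 FPKM in the libraries labelled anti-CTLA4 and 18.4 and 28.4 FPKM with IgG. Both libraries labelled anti-CTLA4 were above every other library, and CD4 depletion and IgG overlapped. By implied depth these levels rest on 720 to 10792 reads per library.

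Cxcl9 was at 0.51, 4.31 and 2.14 FPKM with CD4 depletion, at 29.9 and 23.1 FPKM in the libraries labelled anti-CTLA4, and at 4.89 and 8.36 FPKM with IgG. The groups formed 3 separate ranges, lowest with CD4 depletion, although depletion replicate 2 came close to IgG replicate 1. Cxcl9 spanned the widest range of the 4 genes, with the highest library 58.7 times the lowest, and the lowest still held 160 implied reads.

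Cxcl16 was at 32.6, 14.1 and 31.1 FPKM with CD4 depletion, at 67.4 and 49.7 FPKM in the libraries labelled anti-CTLA4, and at 10.8 and 23.2 FPKM with IgG. Here too the libraries labelled anti-CTLA4 were above all others, while CD4 depletion and IgG overlapped. Cxcl10 was at 53.6, 140 and 79.7 FPKM with CD4 depletion, at 146 and 87.5 FPKM in the libraries labelled anti-CTLA4, and at 154 and 86.9 FPKM with IgG. All 3 groups of Cxcl10 overlapped, and its highest library was 2.88 times its lowest. Cxcl10 ranked between 186 and 910 among the 13028 tested genes by FPKM in the 7 libraries.

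**Figure D1:**
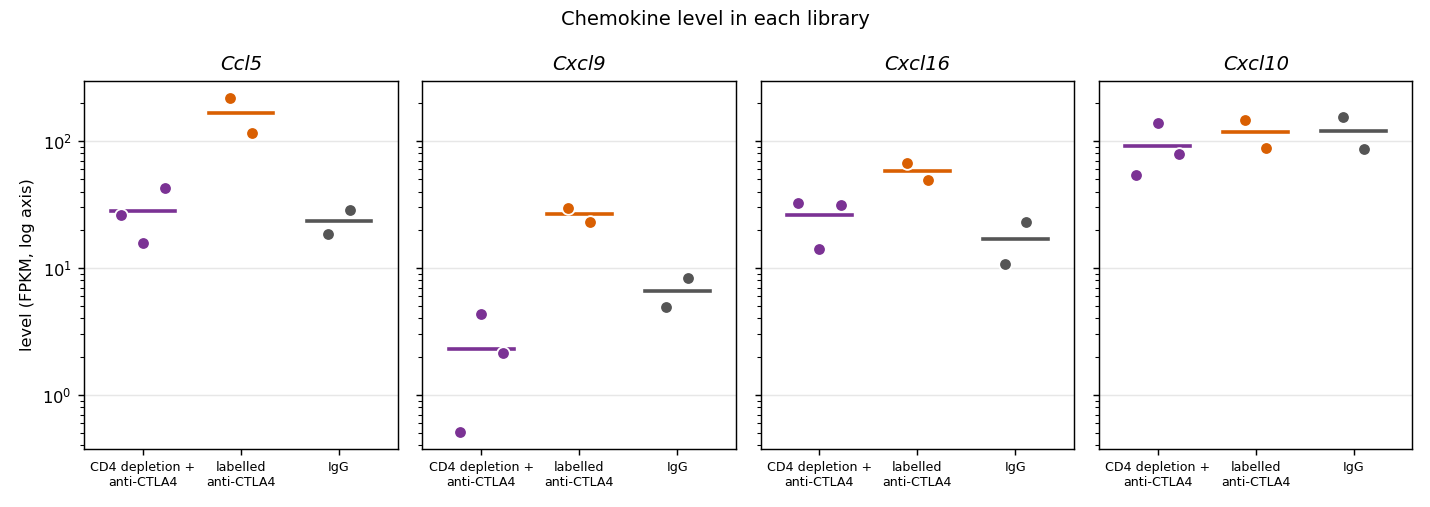
Level of each chemokine transcript in FPKM on a log axis, with 1 point per library and a line at the group mean, for CD4 depletion with anti-CTLA4 (3 libraries), the libraries labelled anti-CTLA4 (2) and IgG (2). Ccl5, Cxcl9 and Cxcl16 are highest in both libraries labelled anti-CTLA4, whereas the 3 groups of Cxcl10 overlap.

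The order of the levels, which FPKM allows because it is scaled to transcript length, was Ccl5, Cxcl10, Cxcl16 and Cxcl9 in both libraries labelled anti-CTLA4. There the ranges of Ccl5 and Cxcl10 overlapped, while Cxcl16 lay below both and Cxcl9 below Cxcl16. In the other 5 libraries Cxcl10 was first and Cxcl9 last. Ccl5 and Cxcl16 lay between them with overlapping ranges, and Cxcl16 exceeded Ccl5 in CD4 depletion replicate 1. With CD4 depletion, Cxcl10 supplied 47.5%, 80.4% and 51.2% of the summed FPKM of the 4 genes, against 31.6% and 31.7% in the libraries labelled anti-CTLA4 and 81.9% and 59.2% with IgG. Ccl5 supplied 23.2%, 8.98% and 27.5%, against 47.4% and 41.9% and against 9.80% and 19.4% in the same order.

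The ratio of the neighbours Cxcl9 and Cxcl10 does not depend on how a library is scaled. Cxcl9 stood at 0.952%, 3.08% and 2.69% of Cxcl10 with CD4 depletion, at 20.5% and 26.4% in the libraries labelled anti-CTLA4, and at 3.17% and 9.62% with IgG. In this ratio the libraries labelled anti-CTLA4 were above every other library. All 3 depletion libraries were below both IgG libraries, but depletion replicate 2 (3.08%) and IgG replicate 1 (3.17%) were nearly equal. An exact two-sided permutation test cannot go below p = 0.333 for 2 libraries against 2, or 0.2 for 2 against 3, so no test of these ratios was made.

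**Figure D2:**
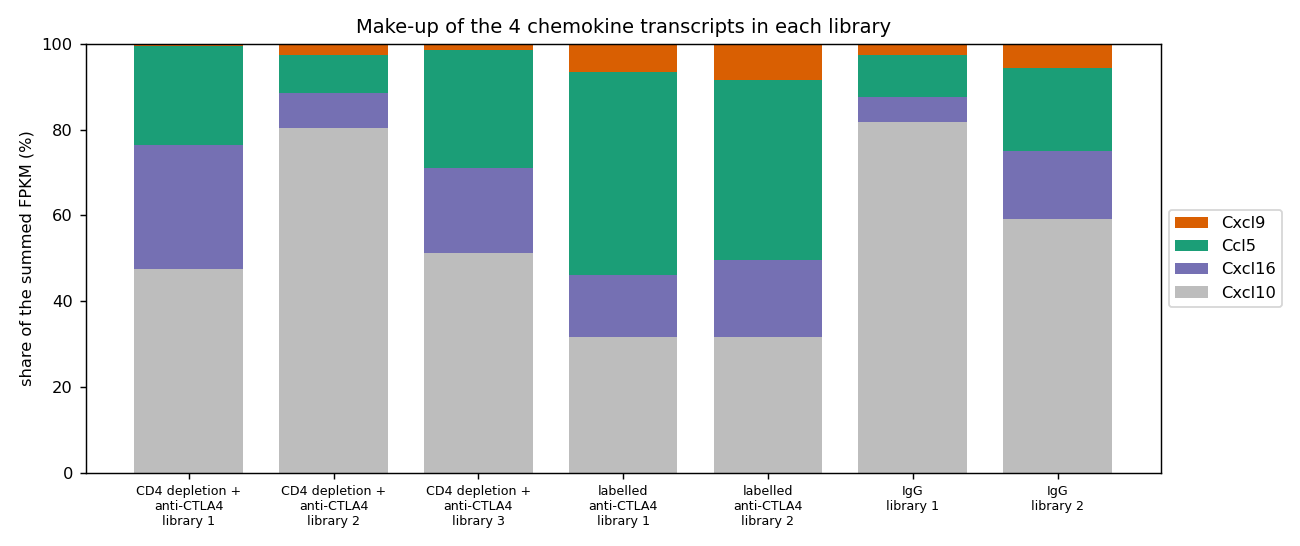
Share of each chemokine, in percent, of the summed FPKM of the 4 transcripts, with 1 bar per library. Ccl5 takes 47.4% and 41.9% in the libraries labelled anti-CTLA4 and at most 27.5% elsewhere, and Cxcl10 takes the largest share in the other 5 libraries.

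The comparison of the libraries labelled anti-CTLA4 with IgG asked how microglial transcripts differed under the checkpoint antibody alone. Of the 4 chemokines 3 rose, namely Ccl5, Cxcl9 and Cxcl16, and Cxcl10 did not pass the threshold, an adjusted p of 0.05. In this comparison 38.0% of all tested genes passed in either direction and 9.29% passed as higher. The libraries of the 3 genes that rose did not overlap between these groups, as was the case for 22.8% of all genes in that direction and 76.9% in either. Ccl5 averaged 168 ± 73.4 FPKM in the libraries labelled anti-CTLA4 and 23.4 ± 7.07 FPKM with IgG (SD, n = 2 each). Its log2 difference was 2.74 (SE 0.48, limma adjusted p = 0.0106), at the 99.81st percentile of all tested genes. This and all further differences are on the scale of log2(FPKM + 1), on which the median of all genes was -0.31.

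Cxcl9 averaged 26.5 ± 4.82 FPKM in the libraries labelled anti-CTLA4 and 6.62 ± 2.46 FPKM with IgG (SD, n = 2 each), a log2 difference of 1.88 (SE 0.54, limma adjusted p = 0.031). Cxcl16 averaged 58.5 ± 12.5 FPKM and 17.0 ± 8.74 FPKM (SD, n = 2 each), a log2 difference of 1.80 (SE 0.47, limma adjusted p = 0.023). Cxcl10 averaged 117 ± 41.5 FPKM and 120 ± 47.4 FPKM (SD, n = 2 each), with a log2 difference of -0.03 and a 95% interval of -1.16 to 1.09. That interval includes a halving and a doubling of Cxcl10.

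Under scaling to the 12 microglia markers, whose summed level was higher in the libraries labelled anti-CTLA4, Ccl5 still rose (log2 difference 1.88, limma adjusted p = 0.022), and Cxcl9 (1.06) and Cxcl16 (0.95) no longer passed (limma adjusted p = 0.085 and 0.212). Cxcl10 had -0.90 under that scaling (limma adjusted p = 0.195). The part of the tumour and microglia markers in these differences was not tested. Of the genes called, 1210 were higher and 3747 lower as deposited, 2147 and 2045 with median-of-ratios scaling, 1928 and 2081 after quantile normalization, and 86 and 5585 under scaling to the microglia markers. The calls of Cxcl9 and Cxcl16 were also lost when any 1 library of the 2 groups was left out, with log2 differences of 1.55 to 2.21 and 1.28 to 2.32. The call of Ccl5 was lost without replicate 2 labelled anti-CTLA4 (3.20, limma adjusted p = 0.068) or IgG replicate 1 (2.45, limma adjusted p = 0.061), and without either of these libraries 0 genes were called by limma at all.

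**Figure D3:**
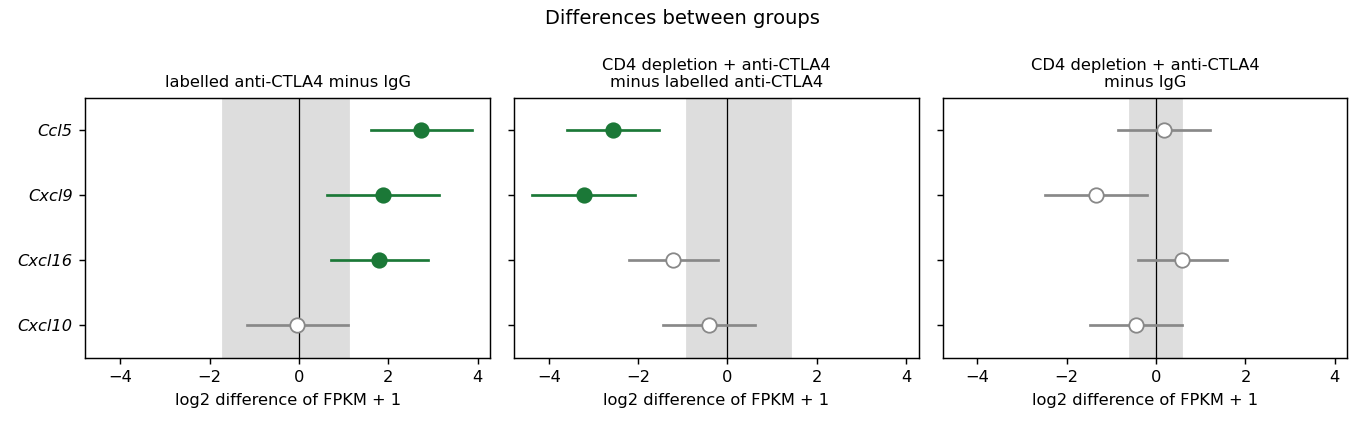
Difference between groups in log2(FPKM + 1) for each chemokine, with lines for the 95% interval of the limma fit. Filled points passed an adjusted p of 0.05, and the grey band covers the central 90% of all tested genes. Ccl5, Cxcl9 and Cxcl16 pass in the first comparison, Ccl5 and Cxcl9 in the second, and no gene in the third.

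The comparison of CD4 depletion with the libraries labelled anti-CTLA4 asked what differed when CD4 T cells were removed under the antibody. It shares the libraries labelled anti-CTLA4 with the comparison above, so opposite signs in both are not independent of each other. Cxcl9 and Ccl5 fell, and Cxcl16 and Cxcl10 did not pass. Of all tested genes, 29.4% passed in either direction, 6.59% as lower and 22.8% as higher. Cxcl9 averaged 2.32 ± 1.91 FPKM with CD4 depletion (SD, n = 3) and 26.5 ± 4.82 FPKM in the libraries labelled anti-CTLA4 (SD, n = 2). Its log2 difference was -3.22 (SE 0.49, limma adjusted p = 0.012), with 0.0307% of tested genes below it.

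Ccl5 averaged 28.2 ± 13.7 FPKM with CD4 depletion (SD, n = 3) and 168 ± 73.4 FPKM in the libraries labelled anti-CTLA4 (SD, n = 2), a log2 difference of -2.57 (SE 0.44, limma adjusted p = 0.014). Cxcl16 averaged 25.9 ± 10.3 FPKM and 58.5 ± 12.5 FPKM, with a log2 difference of -1.22 (SE 0.42, limma adjusted p = 0.066). Its libraries did not overlap between these groups, nor did those of Cxcl9 and Ccl5, as was the case for 15.7% of all genes in that direction, 44.7% in the other and 60.5% in either. Cxcl10 averaged 91.1 ± 44.4 FPKM and 117 ± 41.5 FPKM, with a log2 difference of -0.42 and a 95% interval of -1.45 to 0.61.

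Both calls held under scaling to the microglia markers, where the log2 difference was -2.53 for Cxcl9 and -1.69 for Ccl5. The difference of Cxcl16 was smaller there, at -0.34 (limma adjusted p = 0.611). Without CD4 depletion replicate 1, the library with the high monocyte markers, Cxcl9 had -2.74 (limma adjusted p = 0.0042), Ccl5 -2.57 (limma adjusted p = 0.0082) and Cxcl16 fell by 1.42 (limma adjusted p = 0.037). Without replicate 2 labelled anti-CTLA4 the calls of Cxcl9 (-3.40) and Ccl5 (-3.03) were lost (limma adjusted p = 0.101 and 0.097), and 0 genes were called. Of the genes called, 2969 were higher and 858 lower as deposited, 1463 and 1650 with median-of-ratios scaling, 1452 and 1460 after quantile normalization, and 6112 and 104 under scaling to the microglia markers.

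The comparison of CD4 depletion with IgG draws on the doubtful columns only through the shared estimate of the spread and through the filter. That filter was set over all 7 libraries and fixes which genes were tested and adjusted for. None of the 4 chemokines passed, and 0% of all 13028 genes did by limma, with 851 genes at an unadjusted p under 0.05. Cxcl9 came nearest, at 2.32 ± 1.91 FPKM with CD4 depletion (SD, n = 3) and 6.62 ± 2.46 FPKM with IgG (SD, n = 2), a log2 difference of -1.34 (95% interval -2.49 to -0.19, unadjusted p = 0.028, limma adjusted p = 0.710). Its libraries did not overlap, which held for 16.2% of all genes in that direction and 27.2% in either. Without CD4 depletion replicate 1 its log2 difference was -0.86, and without depletion replicate 2 it was -1.77.

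Ccl5 had a log2 difference of 0.18 (95% interval -0.85 to 1.21), Cxcl16 of 0.58 (-0.41 to 1.58) and Cxcl10 of -0.45 (-1.48 to 0.57) between CD4 depletion and IgG. For all 3 of these genes the libraries overlapped.

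The counts of gene lists that follow stand beside the shares of all tested genes: in the libraries labelled anti-CTLA4 against IgG 9.29% rose and 28.8% fell, and with CD4 depletion against the libraries labelled anti-CTLA4 22.8% rose and 6.59% fell. Among the receptors of these chemokines, Ccr1, which binds Ccl5 and is also found on monocytes, was at 65.8, 3.36 and 8.59 FPKM with CD4 depletion, at 14.1 and 5.18 FPKM in the libraries labelled anti-CTLA4, and at 1.61 and 6.21 FPKM with IgG. The groups overlapped, and its highest level was in CD4 depletion replicate 1, the library with the high monocyte markers. Ccr1 passed in none of the 3 comparisons.

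Cxcr3, the receptor of Cxcl9 and Cxcl10, was at 0.486 to 0.704 FPKM with CD4 depletion, at 1.62 and 1.40 FPKM in the libraries labelled anti-CTLA4, and at 0.236 and 0.222 FPKM with IgG. These are low levels, and Cxcr3 reached 1 FPKM only in the libraries labelled anti-CTLA4. It was thus tested only through the group where it was high. That favoured its calls in the first comparison (1.03, limma adjusted p = 0.012) and the second (-0.63, limma adjusted p = 0.039). Cxcr6, the receptor of Cxcl16, stayed at 0.208 to 0.620 FPKM in all 7 libraries and was not tested, as were Ccr3 and Ackr2. Of the 6 receptors and decoy receptors listed, 3 were tested: in the libraries labelled anti-CTLA4, 2 rose over IgG, and with CD4 depletion 1, Cxcr3, fell against the libraries labelled anti-CTLA4. The medians of these 3 genes were 1.15 and -0.63 in the 2 comparisons, and both counts and medians include Cxcr3. The second riser was Ackr1, a decoy receptor of endothelial and red cells that binds Ccl5 among others, with a log2 difference of 2.11 (limma adjusted p = 0.032). Summed over 8 endothelial and mural markers, the level was 32.9 to 42.0 FPKM with CD4 depletion, 126 and 73.0 FPKM in the libraries labelled anti-CTLA4, and 20.5 and 19.9 FPKM with IgG, and its part in the Ackr1 result was not tested.

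Of the proteins that process or hold these chemokines, 5 of 7 genes were tested. Adam10, which sheds Cxcl16 from the cell surface, did not pass in the libraries labelled anti-CTLA4 against IgG (log2 difference 0.17, limma adjusted p = 0.493), and Adam17 had 0.50 (limma adjusted p = 0.054). Ext1 (-1.58) and Ndst1 (-0.88), enzymes that build the heparan sulfate on which chemokines are held, fell. Both rose with CD4 depletion against the libraries labelled anti-CTLA4 (1.43 and 0.86), as did the protease gene Mmp9 (2.20). The list had a median of 0.17 in the first comparison and 0.86 in the second. Mmp9 was at 27.9, 8.78 and 5.46 FPKM with CD4 depletion, against 2.98 and 0.783 FPKM in the libraries labelled anti-CTLA4. Its highest level was in depletion replicate 1, which also held the high monocyte and neutrophil markers, and their part in this difference was not tested.

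Cxcl11, the remaining CXCR3 ligand, lies 10655 bases beyond Cxcl10 in the same cluster and showed the pattern of Cxcl9 at a low level. It was at 0.324, 0.361 and 0.506 FPKM with CD4 depletion, at 2.62 and 2.49 FPKM in the libraries labelled anti-CTLA4, and at 0.592 and 0.602 FPKM with IgG. It rose in the libraries labelled anti-CTLA4 over IgG (log2 difference 1.16, SE 0.19, limma adjusted p = 0.00995). With CD4 depletion it fell against the libraries labelled anti-CTLA4 (-1.35, SE 0.17, limma adjusted p = 0.011). Cxcl11 reached 1 FPKM only in the libraries labelled anti-CTLA4, so the filter admitted it only through the group where it was high. That favoured both calls. In C57BL/6 mice the Cxcl11 gene is known to carry a frameshift, so its transcript need not stand for a working protein.

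Ccl3 and Ccl4, inflammatory chemokines of the same CC family as Ccl5, did not pass in any comparison. Ccl4 was at 163, 78.7 and 405 FPKM with CD4 depletion, at 1163 and 721 FPKM in the libraries labelled anti-CTLA4, and at 7.33 and 295 FPKM with IgG. The libraries labelled anti-CTLA4 were above all others, but IgG spread widely, and the log2 difference of 4.21 had an SE of 1.49 (limma adjusted p = 0.0596). Of the 15 other T cell and dendritic cell chemokines listed, 10 were tested. Against IgG, 4 rose in the libraries labelled anti-CTLA4 (Cxcl11, Cxcl12, Cxcl13 and Ccl19) and 2 fell (Ccl25 and Cx3cl1), with a median of 1.58 against -0.31 for all genes. Cxcl12, a CXCR4 ligand made by stromal and endothelial cells, had the log2 difference 2.30, and Cx3cl1, the neuronal ligand of CX3CR1, had -3.15. With CD4 depletion against the libraries labelled anti-CTLA4, Cxcl11, Cxcl12 and Ccl19 fell and Ccl25 rose, with a median of -1.64 against 0.27. Cxcl11 and Ccl19 reached 1 FPKM only in the libraries labelled anti-CTLA4, so the filter admitted them only through the group where they were high. The counts and medians of this list are shifted by that in both comparisons.

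Within 100 kb of Cxcl9 on either side, the tested neighbours that are no chemokines were Sdad1, Naaa, Art3 and Nup54. Sdad1, between Naaa and Cxcl9, was at 5.21 to 5.87 FPKM with CD4 depletion, at 4.55 and 4.09 FPKM in the libraries labelled anti-CTLA4 and at 6.92 and 5.54 FPKM with IgG. Its log2 difference in the libraries labelled anti-CTLA4 against IgG was -0.44 (limma adjusted p = 0.090), opposite in sign to Cxcl9. Nup54 fell there (-0.72, limma adjusted p = 0.028), Naaa had 1.36 (limma adjusted p = 0.058), and Art3 had 0.33 (limma adjusted p = 0.436).

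The row of Cxcl16 overlaps that of Zmynd15, a gene on the plus strand, by 363 bases, and counting used both strands, so reads of that stretch cannot be told apart. Zmynd15 was at 4.26, 1.70 and 5.21 FPKM with CD4 depletion, at 7.85 and 6.52 FPKM in the libraries labelled anti-CTLA4, and at 0.998 and 3.67 FPKM with IgG, which is 9.22% to 16.8% of Cxcl16 in each library. The libraries rank almost alike in both genes, but Zmynd15 passed in none of the 3 comparisons (limma adjusted p = 0.056, 0.169 and 0.755 in the order used above).

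Interferon-gamma acts through the receptor chains Ifngr1 and Ifngr2 and induces the transcription factor Irf1. Ifng itself was at 0.015 to 0.124 FPKM with CD4 depletion, 0.151 and 1.08 FPKM in the libraries labelled anti-CTLA4 and 0.383 and 0.118 FPKM with IgG, and was not tested. Ifngr1 was at 133 to 142 FPKM, at 204 and 271 FPKM and at 143 and 107 FPKM in the same groups, and thus had its highest levels in the columns whose sheet numbers the header gives to receptor knockouts. A transcript level over all exons does not show whether the receptor is intact. Of 8 tested genes of this path, 4 rose against IgG in the libraries labelled anti-CTLA4, namely Ifngr2 (1.19), Irf8 (0.93), Ifngr1 (0.92) and the kinase gene Jak1 (0.67). The median of the path was 0.76, against -0.31 for all genes and 0.83 for the 12 microglia markers.

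Irf1 was at 27.0, 72.1 and 31.1 FPKM with CD4 depletion, at 108 and 120 FPKM in the libraries labelled anti-CTLA4, and at 103 and 81.1 FPKM with IgG. All depletion libraries were below all others, whereas the libraries labelled anti-CTLA4 and IgG were close. Against the libraries labelled anti-CTLA4, 4 of the 8 genes fell with CD4 depletion, with a median of -0.70 (all genes 0.27): Irf8 fell (-1.19), as did Irf1 (-1.51, SE 0.39, limma adjusted p = 0.029), Ifngr1 (-0.76) and Ifngr2 (-0.75). Against IgG, Irf1 had -1.19 (SE 0.39) with CD4 depletion and did not pass (limma adjusted p = 0.710). The depletion libraries were thus the lowest in both Irf1 and Cxcl9. Between the libraries labelled anti-CTLA4 and IgG, Cxcl9 was called and Irf1 was not. A link between both genes was not tested.

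Of 9 tested genes of the type I interferon path, 7 rose in the libraries labelled anti-CTLA4 over IgG, with a median of 0.82 (all genes -0.31). The 3 with the smallest p were Ifnar2 (1.14), Stat2 (1.22) and Irf5 (1.27), and the largest rise was that of Irf7 (1.69, limma adjusted p = 0.027). With CD4 depletion against the libraries labelled anti-CTLA4, 4 fell, with a median of -0.65 (all genes 0.27), namely Stat2 (-1.40), Ifnar2 (-0.90), Irf5 (-0.88) and Irf9 (-0.65). Of 11 genes of NF-kB and TNF signalling, 3 rose over IgG, namely Rel (1.34), Relb (0.73) and Nfkbie (0.58), with a median of 0.71 (all genes -0.31). With depletion against the libraries labelled anti-CTLA4, 1 of the 11, Nfkbie, fell (-0.76), a share near the 6.59% of all genes, with a median of -0.53 (all genes 0.27). The 12 microglia markers had medians of 0.83 and -0.95 in the same 2 comparisons. No median of the interferon-gamma, type I interferon or NF-kB lists was larger in size than these. In CD4 depletion against IgG, 0 genes of any of these lists passed by limma.

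**Figure D4:**
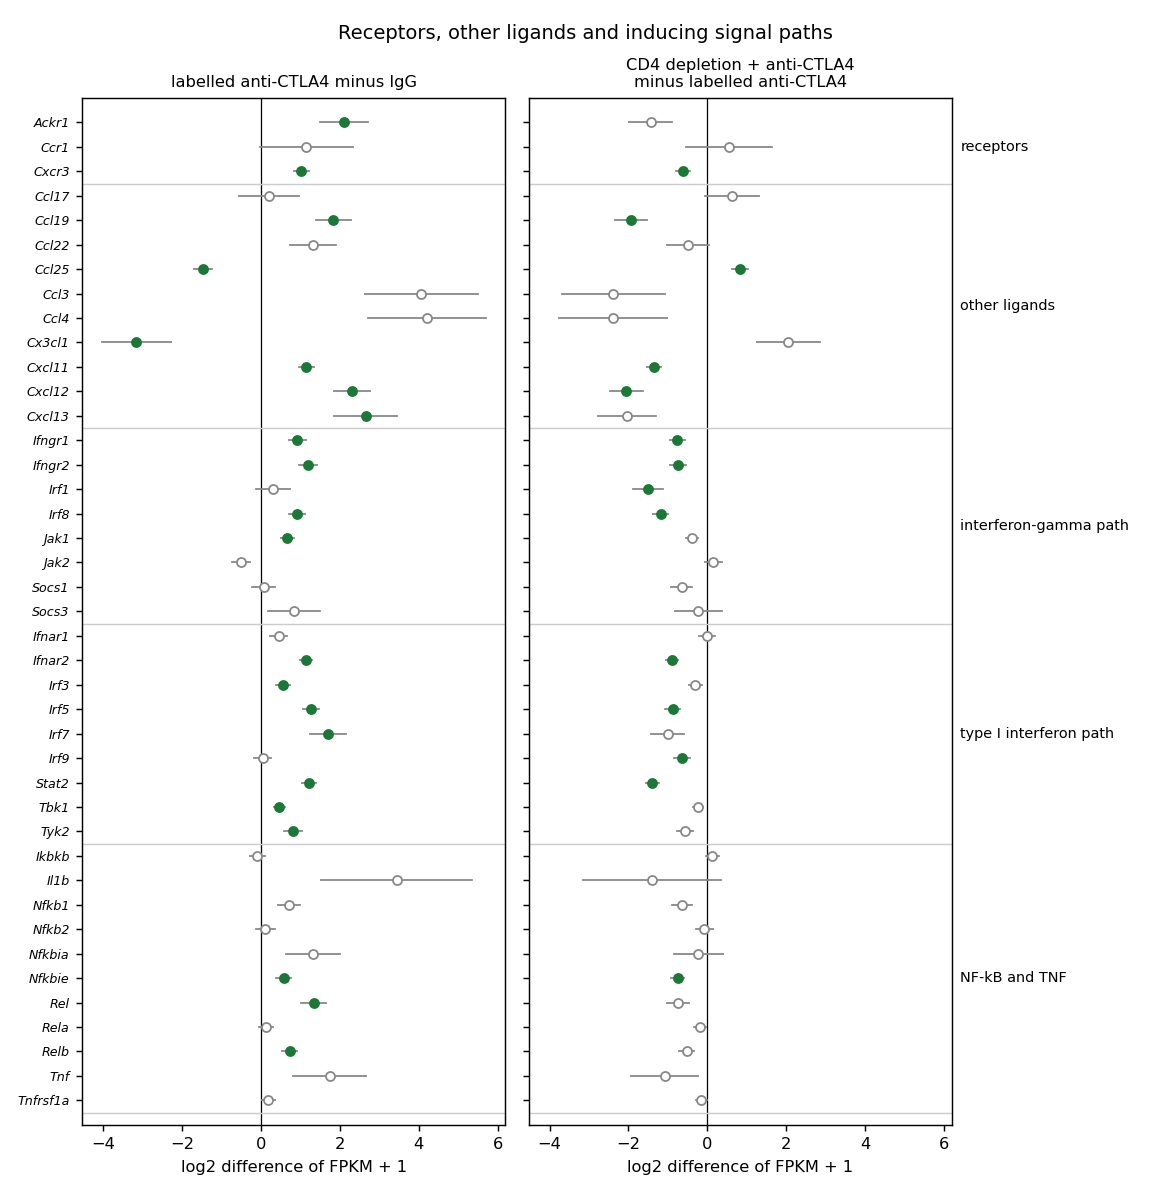
Log2 difference of FPKM + 1, with lines of 1 SE, for the tested receptors, other ligands and genes of the inducing signal paths, in the libraries labelled anti-CTLA4 minus IgG (left) and CD4 depletion minus the libraries labelled anti-CTLA4 (right). Filled points passed a limma adjusted p of 0.05. In the interferon-gamma path 4 genes pass on the left and 4 on the right, where Irf1 is the lowest.

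T cells and NK cells make Ccl5 themselves, so their markers were read beside it, although a sort for CD45 intermediate, CX3CR1+ cells is meant to leave most of them out. Summed over 17 such markers, the level was 6.19 to 10.2 FPKM with CD4 depletion, 10.6 and 15.1 FPKM in the libraries labelled anti-CTLA4, and 7.58 and 6.55 FPKM with IgG. The defining chain Cd3e was at 0.344 to 0.576 FPKM, at 1.07 and 0.575 FPKM and at 0.307 and 0.317 FPKM in these groups, and the cytotoxic granule gene Gzmb at 0.085 to 0.463 FPKM, at 0.931 and 3.79 FPKM and at 0.157 and 0.158 FPKM. Prf1, which encodes perforin, was at 1.17 FPKM in replicate 2 labelled anti-CTLA4 and at 0 to 0.113 FPKM in the other 6 libraries. Gzmb and Prf1 thus had their highest level in replicate 2 labelled anti-CTLA4, as did Cd2 and Gzma. Cd3e, Cd3d, Cd3g and Cd4 had theirs in replicate 1 labelled anti-CTLA4, as did Ccl5. Cd247, Cd8b1, Il2rb, Ncr1 and Nkg7 had theirs in CD4 depletion replicate 2, Cd8a in depletion replicate 3 and Klrb1c in depletion replicate 1. Lck and Tbx21 were highest in IgG replicate 1, so the listed markers were split over all groups. Of 5 tested T and NK genes, 0 passed by limma in the libraries labelled anti-CTLA4 against IgG. With CD4 depletion against the libraries labelled anti-CTLA4, 1 fell, namely Cd3g (-0.59). Cd3g reached 1 FPKM only in the libraries labelled anti-CTLA4, so it was tested only through the group where it was high. That favoured its fall. The part of these cells in the Ccl5 level was not tested.

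Dendritic cells and recruited monocytes, which usually have high CD45 and which the same sort is meant to leave out, are known sources of Cxcl9 and Cxcl16. Summed over 10 dendritic cell markers the level was 103 to 191 FPKM with CD4 depletion, 291 and 401 FPKM in the libraries labelled anti-CTLA4, and 160 and 145 FPKM with IgG. Siglech, which microglia also express, was 78.6 to 174 FPKM, 259 and 376 FPKM, and 148 and 132 FPKM of these sums. Of 6 tested genes of that list 4 rose over IgG, namely Cd209a (1.37), Batf3 (0.75), Ly6d (1.27) and Siglech (1.15), with a median of 1.21 (all genes -0.31). Ccr7 (1.73, limma adjusted p = 0.069) and Zbtb46 (-0.17, limma adjusted p = 0.658) did not pass. The listed markers Flt3, Xcr1, Clec9a and Itgae were too low to be tested. With depletion against the libraries labelled anti-CTLA4 2 fell, with a median of -0.66 (all genes 0.27). Cd209a was listed at 0 in both IgG libraries. Cd209a and Ly6d reached 1 FPKM only in the libraries labelled anti-CTLA4 and in CD4 depletion replicate 1. Monocyte markers summed to 49.3 and 27.8 FPKM in the libraries labelled anti-CTLA4, against 14.0 and 34.9 FPKM with IgG. Of 7 tested genes of that list, 0 rose over IgG and 1 fell, namely Vcan (-2.31, limma adjusted p = 0.011). With depletion against the libraries labelled anti-CTLA4, Vcan rose (2.14, limma adjusted p = 0.014) and 0 fell. In CD4 depletion replicate 1, at 808 FPKM of monocyte markers, Cxcl9 and Cxcl10 had their lowest levels, Cxcl16 had the highest of its group and Ccl5 lay between the other two libraries. The part of either cell type in the chemokine levels was not tested.

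The genes most like each chemokine were sought among 7583 tested genes with a mean of at least 5 FPKM, by Pearson's r of log2(FPKM + 1) over the 7 libraries. These libraries share 2 that stand apart, those labelled anti-CTLA4, which weigh heavily in each r. For Cxcl9 the 5 nearest were Il18bp (0.991), Sap130 (0.985), Slamf8 (0.983), Idua (0.973) and H2-T23 (0.972). Il18bp encodes a secreted inhibitor of interleukin 18 and H2-T23 a non-classical MHC class I chain. Il18bp was at 4.60, 9.35 and 6.61 FPKM with CD4 depletion, 43.6 and 34.6 FPKM in the libraries labelled anti-CTLA4, and 13.4 and 16.2 FPKM with IgG, separating the 3 groups as Cxcl9 did.

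For Ccl5 the nearest were Lgals3bp (0.988), Ly86 (0.986), Psap (0.983), Ly9 (0.979) and Atp6v0b (0.978). Psap encodes the precursor of the lysosomal saposins, and Ly9 a receptor of the SLAM family. For Cxcl16 they were Rab27a (0.998), Pqlc2 (0.990), Lat2 (0.989), Itgax (0.988) and Tesk1 (0.987). Itgax encodes the integrin CD11c. For Cxcl10 they were Bcl7b (0.947), Lap3 (0.931), Ppp1r11 (0.931), Tmem192 (0.926) and Slc25a1 (0.897). Lap3 was at 48.5 to 62.2 FPKM with CD4 depletion, 69.8 and 59.7 FPKM in the libraries labelled anti-CTLA4 and 70.9 and 56.7 FPKM with IgG, again with overlapping groups.

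Among the 4 chemokines themselves, r was 0.913 between Ccl5 and Cxcl16, 0.749 between Ccl5 and Cxcl9, 0.525 between Cxcl9 and Cxcl10 and 0.483 between Cxcl9 and Cxcl16. It was 0.071 between Ccl5 and Cxcl10 and -0.304 between Cxcl16 and Cxcl10. The likest pair, Ccl5 and Cxcl16, are both on chromosome 11 but are not neighbours, while the adjacent Cxcl9 and Cxcl10 were less alike over these libraries.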

How the data were processed

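The authors deposited FPKM values for 7 libraries, made with HOMER over exons of mm10 genes with 1 entry kept per gene and both strands counted, per the file headers. STAR, HOMER and DESeq2 are named in the submitters' processing notes; their versions are not given in the sources used here. The header command lists 40 libraries, of which 7 have a column.

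From these values, log2(FPKM + 1) was fitted with limma 3.58.1 in R 4.3.3 over the 13028 genes that reached 1 FPKM in 2 or more libraries. All 3 groups shared 1 fit with a mean-variance trend. Tests were two-sided with Benjamini-Hochberg adjustment over all tested genes at 0.05. The fit was tested on simulated data. There it called 95% of genes given a log2 difference of 2 in the first and the second comparison. Of genes given a difference of 1 it called 35% and 56%, so a gene that did not pass may still differ. The altered genes were few, were drawn only from those above a set mean level, and had normal noise. In the data 38.0% and 29.4% of genes passed in these comparisons, so the simulated rates need not hold for the members. Low values of transcripts of 200 to 800 nucleotides came within 0.1 of whole reads in 100% of cases up to 20 reads, which gave the implied depth; no count test was run on FPKM. Such reads cover counting error only.

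The 4 members and all gene lists were chosen with earlier results of these data known. Named genes are the members, up to 3 genes with the smallest p per list, receptors and other ligands, and the 5 genes most like each member; neighbours were taken by position, and defining markers and genes that complete a count of 5 or fewer were named after their values were seen. Alternatives were another pseudocount, filter, scaling, fit, replicate block and leaving out each library. Some genes of the receptor and signal path lists are not reported here, and the lists' counts and medians leave them out.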

Additional observations from a re-analysis of the deposited data

How the results depend on the processing

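The limits are the 2 or 3 libraries per group, the doubtful labels of 1 group and the scaling. In the libraries labelled anti-CTLA4 against IgG, Cxcl9 missed the threshold with a pseudocount of 0.1 (log2 difference 2.02, limma adjusted p = 0.084), with no filter (1.88) and under scaling to the microglia markers (1.06), and Cxcl16 with no filter (1.80) and under that scaling (0.95). Leaving out 1 library gave 1.55 to 2.21 for Cxcl9, 1.28 to 2.32 for Cxcl16 and 2.29 to 3.20 for Ccl5. Cxcl10 had -0.90 under scaling to the microglia markers, changed sign with median-of-ratios scaling (0.34) and ranged from -0.44 to 0.38 without 1 library, positive without replicate 2 labelled anti-CTLA4 (0.33) or IgG replicate 1.

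In CD4 depletion against the libraries labelled anti-CTLA4, leaving out 1 library gave -3.65 to -2.74 for Cxcl9, -3.03 to -2.11 for Ccl5, -1.43 to -0.84 for Cxcl16 and -0.79 to -0.05 for Cxcl10. Cxcl16 passed with median-of-ratios scaling (-1.53, limma adjusted p = 0.048) and was at -0.34 under scaling to the microglia markers, and Cxcl10 changed sign under scaling to the microglia markers (0.46). In CD4 depletion against IgG, no member passed under any of the 17 alternatives, and Ccl5 ranged from -0.17 to 0.53 without 1 library, negative without CD4 depletion replicate 3 or IgG replicate 1 (-0.12).

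Genes called in the first comparison numbered 4957, and 0 to 6075 without 1 library (0 without replicate 2 labelled anti-CTLA4 or IgG replicate 1, 691 without IgG replicate 2). In the second they numbered 3827, with 2477 without a filter, 6216 under scaling to the microglia markers and 0 to 5306 without 1 library (0 without replicate 2 labelled anti-CTLA4, 987 and 1391 without CD4 depletion replicates 3 and 2). In the third they numbered 0 throughout.

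Libraries with the same number were not shown to be paired: their deviations from the group means correlated at -0.205 to 0.123. With the replicate number as a block, the first comparison called 2665 genes and the second 0. Under that block Cxcl9 had 1.88 and Cxcl16 1.80 in the first comparison and no longer passed (limma adjusted p = 0.054 and 0.059), and Cxcl9 (-3.27) and Ccl5 (-2.92) no longer passed in the second (limma adjusted p = 0.076 each); Ccl5 changed sign against IgG with depletion (-0.17). A crossed pairing of the labelled anti-CTLA4 and IgG numbers, chosen after the data were seen, called 3817 genes. The cause of these changes was not tested.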
